A study of Mus musculus with 18 samples.

Results

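The genes of glutamate uptake and the glutamine cycle described here are Slc1a1, Slc1a2, Slc1a3, Glul, Glud1 and Slc38a3, 6 of the 55291 gene symbols counted in the hippocampus of mice with and without a kainic acid lesion. They were chosen by symbol, with earlier results of these data known. All 6 had FPKM (fragments scaled to exon length and to library size) above 1 in each of the 18 libraries, so that every one entered every test. Astrocytes take up the glutamate released at synapses through the sodium-coupled transporters GLT-1 (Slc1a2) and GLAST (Slc1a3), and glutamine synthetase (Glul) turns it into glutamine. Glutamine leaves the astrocyte through carriers such as SNAT3 (Slc38a3) and is used by neurons to make transmitter glutamate again. Glutamate dehydrogenase (Glud1) feeds glutamate into the mitochondrial tricarboxylic acid cycle, and EAAC1 (Slc1a1) is the transporter of this family found mainly on neurons.

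Six-week-old male C57BL/6J mice received, in the right CA3 region, an AAV (AAV-DJ) that expresses the ribosomal protein fusion EGFP-Rpl10a from the astrocyte promoter GfaABC1D. All groups carry this virus, and the label depends on the activity of a fragment of the Gfap promoter. The AAV-Control group received only the virus and was collected 2 weeks later. The KA group received 50 nL of 20 mM kainic acid, a glutamate receptor agonist, in the right dentate gyrus 2 weeks after the virus and was collected 14 days after that, so that KA treatment and the longer time since the virus cannot be told apart against AAV-Control. The PBS group received PBS after the virus, and its intervals were not given in the sources used here. Each homogenate pooled the right hippocampi of 3 to 4 mice and gave an input library of total RNA and an IP library of RNA bound to GFP-tagged ribosomes, with 3 homogenates a group. AAV-Control and KA replicates 1 and 2 were sequenced in run 1, replicate 3 of both groups in run 2 and the PBS libraries in run 3, so that run and the PBS group cannot be told apart.

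The 18 libraries held 7991681 to 16032180 counted reads (median 10313125). Each of the 10 astrocyte markers was higher in IP than in input in all 3 groups, and the median IP to input ratio of this list was 6.84 in AAV-Control, 6.05 in PBS and 3.02 in KA. The same median was 0.139, 0.156 and 0.320 for 6 neuronal markers and 0.654, 0.646 and 2.32 for 6 oligodendrocyte markers, and 0.154, 0.253 and 0.0698 for 6 microglial markers. Ttr, a choroid plexus transcript, ranged from 14.6 FPKM in AAV-Control input replicate 3 to 4459 FPKM in KA input replicate 1, and AAV-Control replicate 3 stood apart from replicates 1 and 2 of its group (2965 and 2102 FPKM). The PBS inputs were low as well (17.0, 247 and 287 FPKM), so that Ttr was 19.9-fold higher in KA than in PBS input (edgeR adjusted p = 0.00207), and the part of this tissue in the input values was not tested. Replicates 1 and 2 of AAV-Control and of KA, all of run 1, differed from each other less (chi-square per gene of 4.48 to 9.59) than either did from replicate 3 (39.6 to 109), and nothing in the labels says how the pools of mice were drawn.

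In the mouse genome (GRCm38, GENCODE M21) Slc1a2 lies at chr2:102658659-102790784 on the plus strand, Slc1a3 at chr15:8634124-8710764 on the minus strand, Glul at chr1:153899944-153909723 on the plus strand and Glud1 at chr14:34310727-34345265 on the plus strand. Slc38a3 lies at chr9:107650634-107669530 on the minus strand and Slc1a1 at chr19:28835049-28913960 on the plus strand. Slc1a1 overlaps 4430402I18Rik on the other strand, whose counts reached 28.3% of those of Slc1a1 in 1 library, and whether reads were assigned by strand is not given in the sources used here. The genes that overlap Slc1a2, Slc1a3 and Glul reached at most 1.31% of the member's counts in any library.

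The start regions of the 4 members that fell together in IP after KA are given here for comparison, each with 250 bases before and 50 bases after the RefSeq start (GRCm38.p6), written 5′ to 3′ on the strand of the gene. Capitals mark matches on either strand to the motif of the TATA box, with letters TATAAA, to that of the CCAAT box, with the same letters as its name, and to that of the GC box, with letters GGGCGG. They also mark the STAT element with letters TTCNNNGAA, the NFI half-site with letters TTGGCA and the CRE half-site with letters TGACG. Overlapping matches were all kept. RefSeq promoters were found for 5 of the 6 members, all but Slc38a3.
Slc1a2, chr2:102706188-102706487, plus strand: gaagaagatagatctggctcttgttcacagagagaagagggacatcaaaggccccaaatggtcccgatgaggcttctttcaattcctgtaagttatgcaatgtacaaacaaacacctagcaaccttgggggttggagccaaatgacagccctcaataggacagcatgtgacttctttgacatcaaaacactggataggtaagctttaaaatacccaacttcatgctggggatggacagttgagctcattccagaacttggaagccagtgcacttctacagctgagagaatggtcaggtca
Slc1a3, chr15:8710758-8711057, minus strand: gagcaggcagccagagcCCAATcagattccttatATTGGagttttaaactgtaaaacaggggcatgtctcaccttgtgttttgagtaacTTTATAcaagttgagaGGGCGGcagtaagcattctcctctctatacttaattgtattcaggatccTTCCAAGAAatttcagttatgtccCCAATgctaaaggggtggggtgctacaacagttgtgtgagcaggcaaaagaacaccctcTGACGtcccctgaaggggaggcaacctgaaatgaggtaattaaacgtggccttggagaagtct
Glul, chr1:153899679-153899978, plus strand: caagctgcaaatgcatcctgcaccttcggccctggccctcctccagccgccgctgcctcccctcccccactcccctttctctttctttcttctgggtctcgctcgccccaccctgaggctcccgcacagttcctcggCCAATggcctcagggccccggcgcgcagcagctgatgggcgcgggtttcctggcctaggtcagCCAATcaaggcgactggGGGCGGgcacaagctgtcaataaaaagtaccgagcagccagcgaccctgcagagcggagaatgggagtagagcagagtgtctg
Glud1, chr14:34310477-34310776, plus strand: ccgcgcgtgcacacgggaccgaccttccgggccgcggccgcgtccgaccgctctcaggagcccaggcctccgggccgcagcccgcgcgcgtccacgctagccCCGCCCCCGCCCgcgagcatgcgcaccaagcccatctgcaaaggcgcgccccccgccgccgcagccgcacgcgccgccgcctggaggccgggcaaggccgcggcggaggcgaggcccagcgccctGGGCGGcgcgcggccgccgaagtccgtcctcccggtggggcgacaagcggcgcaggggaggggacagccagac

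GC content was 45.7% for Slc1a2, 45.3% for Slc1a3, 64.3% for Glul and 81.0% for Glud1, beside a median of 52.7% over 32851 RefSeq promoters. The RefSeq start of Slc1a2 is 47.8 kb downstream of the first GENCODE start of the gene, and its window holds none of the 6 motifs. Slc1a3 holds 5 of them, including TTCCAAGAA at position -96 from the start, a letter pattern present in 8.30% of all promoters. A CCAAT box is present in the Slc1a3 and Glul windows (37.4% of all promoters), and a GC box in those of Slc1a3, Glul and Glud1 (35.7%). The window of Slc1a1, which was not called in IP, also holds a GC box, at position -103, with a GC content of 70.3%. These are matches of letters and carry no measurement of binding.

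Slc1a2 was the most abundant member in each of the 6 kinds of library, and Slc1a2 and Glul were the 2 highest throughout. Per length, mean FPKM in AAV-Control IP fell from 1359 for Slc1a2 to 773 for Glul, 288 for Slc1a3, 140.0 for Glud1, 26.4 for Slc38a3 and 2.67 for Slc1a1, with no overlap between neighbours in this order. The order in PBS IP was the same, but there Slc1a2 and Glul overlapped between libraries. In the input the last 2 members changed places with the group, since Slc1a1 was above Slc38a3 in AAV-Control (9.36 against 3.34 FPKM) and PBS (9.65 against 3.58) and below it in KA (7.21 against 8.02). Together the 6 members took 1.72% to 2.83% of all counts in AAV-Control IP, 1.85% to 2.97% in PBS IP and 0.822% to 0.884% in KA IP. In the input they took 0.274% to 0.306%, 0.356% to 0.380% and 0.385% to 0.405%.

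**Figure D1:**
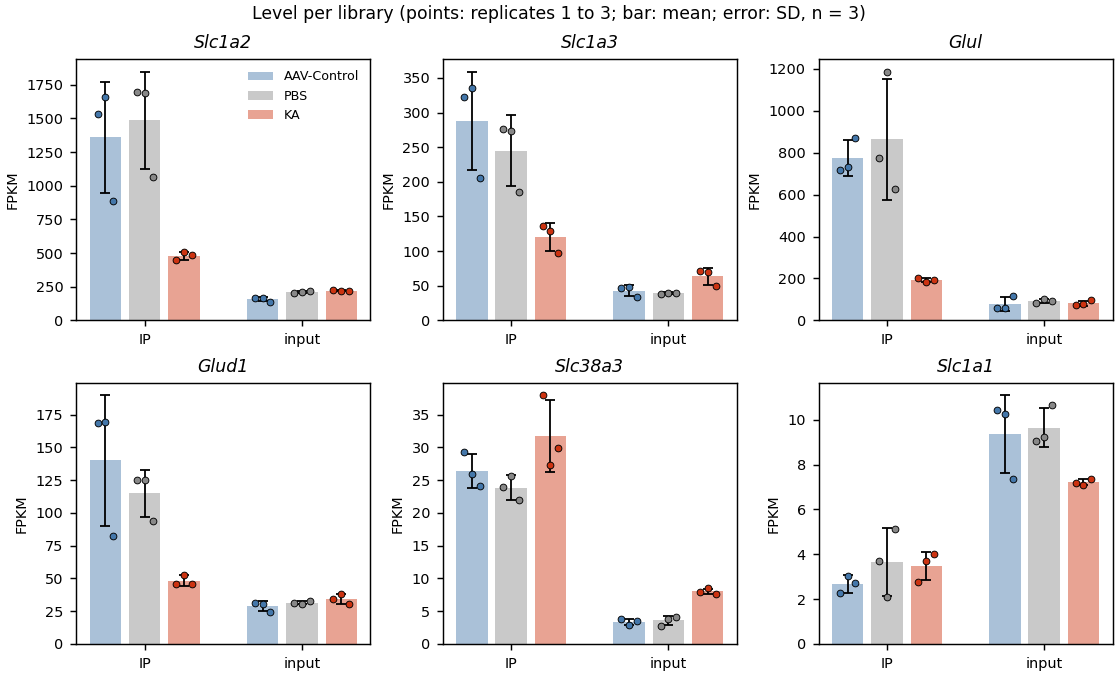
FPKM of the 6 members in each library (points), with the mean (bar) and SD (n = 3) for AAV-Control, PBS and KA in IP and in input, on a linear axis from 0 that differs between panels. In IP, the KA points of Slc1a2, Slc1a3, Glul and Glud1 lie below all control points, while in input Slc38a3 is higher in KA than in either control group.

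The first comparison asks how KA changed these transcripts in the astrocyte-enriched RNA. Slc1a2, Slc1a3, Glul and Glud1 were lower in KA IP than in either control group, by 2.07-fold to 4.57-fold, and Slc38a3 and Slc1a1 were not called. Against AAV-Control 4 of the 6 members were called lower and 0 higher (edgeR quasi-likelihood test, Benjamini-Hochberg adjusted p under 0.05), beside 9.74% of 9729 genes called lower and 10.4% called higher. The same 4 were lower against PBS, beside 18.9% of 9847 genes called lower and 18.2% called higher. The median log2 fold change of the 6 members was -1.31 against AAV-Control and -1.16 against PBS, beside -0.02 and -0.01 over all genes tested.

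Slc1a2 in IP measured 1534, 1658 and 885 FPKM in AAV-Control, 1699, 1691 and 1067 in PBS and 448, 507 and 486 in KA (replicates 1 to 3). No KA library reached the lowest control library, and replicate 3 was the lowest of both control groups. Its log2 fold change was -1.42 (SE 0.306, adjusted p = 0.0164) against AAV-Control and -1.65 (SE 0.490, adjusted p = 0.0233) against PBS in edgeR. Slc1a3, the other astrocytic glutamate transporter, measured 322, 336 and 206 FPKM in AAV-Control IP, 276, 273 and 186 in PBS IP and 136, 128 and 97.5 in KA IP. The KA libraries again lay below all 6 control libraries, with a log2 fold change of -1.19 (SE 0.235, edgeR adjusted p = 0.0122) against AAV-Control and -1.05 (SE 0.318, adjusted p = 0.0249) against PBS.

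These 2 transporters were the least firm of the 4 calls. Slc1a2 no longer passed against AAV-Control without KA replicate 1 (edgeR adjusted p = 0.0820), KA replicate 2 (0.0824), AAV-Control replicate 1 (0.0739) or AAV-Control replicate 2 (0.0674), and Slc1a3 gave 0.05003, 0.0629, 0.0536 and 0.0519 without the same libraries. Against PBS, Slc1a2 did not pass without KA replicate 1 (0.130), KA replicate 2 (0.121), KA replicate 3 (0.0658) or PBS replicate 1 (0.0817), while Slc1a3 did not pass without those (0.0811, 0.0973, 0.0643 and 0.0841) or PBS replicate 2 (0.0620). Every one of these fits kept the lower direction.

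Glul showed the largest decrease of the 6. It measured 716, 731 and 871 FPKM in AAV-Control IP, 776, 1188 and 627 in PBS IP and 203, 185 and 193 in KA IP. The KA libraries lay close together, around a mean of 194 FPKM, and below every control library. Its log2 fold change was -1.95 (SE 0.239, edgeR adjusted p = 0.00196) against AAV-Control, a 3.86-fold decrease, and -2.19 (SE 0.379, adjusted p = 0.00178) against PBS, a 4.57-fold decrease. Only 0.596% of the genes tested against AAV-Control had a lower log2 fold change.

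Glud1, the mitochondrial dehydrogenase, measured 168, 169 and 82.4 FPKM in AAV-Control IP, 125, 125 and 94.0 in PBS IP and 46.1, 53.0 and 45.4 in KA IP. No KA library reached a control library, and AAV-Control replicate 3 was the lowest control. The log2 fold change was -1.46 (SE 0.262, edgeR adjusted p = 0.00856) against AAV-Control and -1.27 (SE 0.239, adjusted p = 0.00276) against PBS. Glul and Glud1 stayed called against both control groups when any 1 library was left out.

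Slc38a3, the glutamine exporter, went the other way in direction and was not called. It measured 29.2, 25.9 and 24.1 FPKM in AAV-Control IP, 24.0, 25.7 and 21.9 in PBS IP and 38.0, 27.3 and 29.98 in KA IP. The KA libraries overlapped those of AAV-Control and lay above those of PBS, with a log2 fold change of 0.32 (SE 0.180, edgeR adjusted p = 0.249) and 0.40 (SE 0.206, adjusted p = 0.147). Slc1a1 was close to the FPKM minimum of 1 in IP, at 2.26, 3.03 and 2.72 FPKM in AAV-Control, 3.69, 2.10 and 5.12 in PBS and 2.77, 3.69 and 3.99 in KA. Its groups overlapped, with a log2 fold change of 0.45 (SE 0.232, edgeR adjusted p = 0.217) against AAV-Control and -0.01 (SE 0.266, adjusted p = 0.979) against PBS.

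Within sequencing run 1 alone, the log2 fold change in IP against AAV-Control was -1.69 for Slc1a2, -1.26 for Slc1a3, -1.85 for Glul and -1.72 for Glud1, and all 4 were called in edgeR, beside 47.1% of all genes in either direction. That run held only replicates 1 and 2 of each group, which differed from each other less than from replicate 3. Run 2 held 1 library of each kind and gives no test of its own, and the run as a covariate left the same 4 members called, beside 40.2% of all genes. The result did depend on the scaling. With libraries scaled to the 10 astrocyte markers, an alternative chosen after seeing the data that moved the median of all genes to 0.47, 0 of the 4 were called against AAV-Control, with log2 fold changes of -0.85 (edgeR adjusted p = 0.257) for Slc1a2, -0.68 (0.171) for Slc1a3, -1.50 (0.0702) for Glul and -0.88 (0.0747) for Glud1. Against PBS the same scaling left Slc1a2 (-1.31, adjusted p = 0.0224), Glul (-1.84, 0.00112) and Glud1 (-0.97, 0.0461) called and Slc1a3 not (-0.76, 0.130). With this scaling 12.4% of 9729 genes were called against AAV-Control and 14.9% of 9847 against PBS.

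Markers of other cells moved with the same comparison. Summed FPKM in IP of the 6 oligodendrocyte markers was 247 to 1037 in AAV-Control, 277 to 550 in PBS and 1279 to 2439 in KA, and that of the 6 neuronal markers was 90.9 to 131, 93.0 to 160 and 172 to 252. None of these markers was at 0 throughout a group. Astrocyte markers did not move together, since against AAV-Control Gfap (2.49) and Aqp4 (0.99) were called higher and Gja1 (-1.42), Gjb6 (-0.998) and Fgfr3 (-1.08) lower, on the log2 scale, with a list median of -0.48. Against PBS Gfap (1.94) and Kcnj10 (0.80) were called higher and Gja1 (-1.16) and Fgfr3 (-0.74) lower, with a list median of -0.23. There Aqp4 (0.89, edgeR adjusted p = 0.0525) and Gjb6 (-0.36, 0.259) were not called. The part of other cell types in the changes of the 4 members was not tested. In bulk libraries such as these, fewer cells of a type and less RNA per cell cannot be told apart.

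PBS against AAV-Control compares the 2 control groups, whose injection and sequencing run cannot be told apart. In IP 0 of 6 members were called in edgeR, none had an unadjusted p under 0.05, and DESeq2 and limma voom also called 0. Log2 fold changes ran from -0.21 for Glud1 to 0.44 for Slc1a1. Of all 10667 genes 0% were called, with 1153 at an unadjusted p under 0.05, 16 called in DESeq2 and 0 in limma voom, but without AAV-Control replicate 3 edgeR called 1118 (10.5%), and 0 in each of the other 5 fits with 1 library left out.

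The input asks whether the same transcripts changed in the whole hippocampus. In the main fits none of the 4 members that fell in IP was called lower there. Slc38a3 more than doubled in level against both control groups, and Slc1a3 rose and Slc1a1 fell against PBS. Slc38a3 measured 3.75, 2.82 and 3.45 FPKM in AAV-Control input, 2.81, 3.82 and 4.12 in PBS input and 7.88, 8.49 and 7.68 in KA input. Every KA library was above every control library. Its log2 fold change was 1.26 (SE 0.156, edgeR adjusted p = 0.00471) against AAV-Control, a 2.40-fold increase, and 1.16 (SE 0.121, adjusted p = 8.16e-05) against PBS, a 2.23-fold increase.

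Against AAV-Control Slc38a3 was the 1 member of 6 called, beside 3.54% of 10809 genes called higher and 0.944% called lower. Against PBS 2 of 6 were called higher, beside 15.5% of 10849 genes, and 1 lower, beside 12.2%. Slc1a3 measured 47.0, 47.9 and 34.2 FPKM in AAV-Control input, 38.4, 40.0 and 40.0 in PBS input and 71.5, 70.4 and 49.5 in KA input. All KA libraries were the higher ones, by a log2 fold change of 0.67 (SE 0.129, edgeR adjusted p = 0.00386) against PBS. Against AAV-Control it was 0.57 (SE 0.176, edgeR adjusted p = 0.130), and 0.57 with the replicate number as a block (adjusted p = 0.0194), where 10.2% of all genes were called.

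Slc1a1 was 10.4, 10.3 and 7.36 FPKM in AAV-Control input, 9.06, 9.22 and 10.7 in PBS input and 7.17, 7.09 and 7.38 in KA input. KA lay below all PBS libraries, with a log2 fold change of -0.42 (SE 0.0956, edgeR adjusted p = 0.00843), and overlapped AAV-Control replicate 3, with -0.36 (SE 0.146, adjusted p = 0.245). Slc1a2 measured 168, 165 and 139 FPKM in AAV-Control input, 205, 209 and 217 in PBS input and 223, 220 and 216 in KA input. KA overlapped PBS and was above AAV-Control, with log2 fold changes of 0.05 (SE 0.152, edgeR adjusted p = 0.833) and 0.49 (SE 0.187, adjusted p = 0.218). Glul (57.3 to 118 FPKM) and Glud1 (24.3 to 38.0 FPKM) overlapped between KA and both control groups in the input. Their log2 fold changes against AAV-Control were 0.06 (SE 0.342, edgeR adjusted p = 0.949) and 0.26 (SE 0.130, adjusted p = 0.363). Against PBS they were -0.20 (SE 0.151, edgeR adjusted p = 0.364) and 0.10 (SE 0.0995, adjusted p = 0.508). Without KA replicate 3 Glul was called lower against PBS (-0.38, edgeR adjusted p = 0.00719), beside 44.2% of all genes in either direction.

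AAV-Control replicate 3 weighed on these input values. At 118 FPKM its Glul was the highest of the 9 input libraries, beside 58.1 and 57.3 FPKM in the other 2 AAV-Control libraries. Without it 4 members were called in input against AAV-Control in edgeR, namely Slc38a3, Slc1a3 (0.47, adjusted p = 0.0430), Glul (0.58, 0.0420) and Slc1a1 (-0.46, 0.0192), beside 24.2% of all genes in either direction, against 4.49% with that library. Within run 1, where that library is absent, all 6 were called, with Slc1a2 at 0.41, Slc1a3 at 0.58, Glul at 0.39, Glud1 at 0.22, Slc38a3 at 1.33 and Slc1a1 at -0.54, beside 43.4% of all genes. Run 1 held only replicates 1 and 2 of AAV-Control and KA, which differed from each other less than from replicate 3. Its p-values rest on that smaller spread. With run as a covariate 3 were called, Slc38a3, Slc1a3 (edgeR adjusted p = 0.00352) and Slc1a2 (0.0379), beside 16% of all genes.

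Astrocyte and microglial markers rose in the same libraries. Against AAV-Control 5 of 10 astrocyte markers and 5 of 5 microglial markers tested were called higher in input, with median log2 fold changes of 0.86 and 1.85, beside -0.03 over all genes. Neuronal markers had a median of -0.41, and 0 of 6 were called in edgeR (2 at an unadjusted p under 0.05, 1 in DESeq2, 0 in limma voom). Against PBS, where Slc1a1 fell, 4 of 6 neuronal markers were called lower (median -0.52), 8 of 10 astrocyte markers higher (median 0.997) and 5 of 5 microglial markers higher (median 1.81). Scaled to the astrocyte markers, Slc38a3 in input was no longer called against AAV-Control (0.51, edgeR adjusted p = 0.0620) or PBS (0.24, 0.207), and Slc1a3 turned to -0.19 and -0.28. Under that scaling Slc1a2 (-0.87), Glul (-1.09) and Glud1 (-0.84) were called lower against PBS, beside 86.3% of 10849 genes called in either direction. The median of all genes moved to -0.92 in that fit. The part of these cell types in the input levels was not tested.

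Between PBS and AAV-Control input 0 of 6 members were called in edgeR, DESeq2 or limma voom, with 1 at an unadjusted p under 0.05. Log2 fold changes ran from -0.08 for Slc1a3 to 0.46 for Slc1a2. Without AAV-Control replicate 3, Slc1a2 (0.41, edgeR adjusted p = 0.0336) and Glul (0.78, 5.94e-05) were called higher in PBS, beside 37% of 10924 genes called in either direction in that fit and 0 in each of the other 5 with 1 library left out. With all libraries 0% of these genes were called, with 901 at an unadjusted p under 0.05, 30 called in DESeq2 and 0 in limma voom.

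**Figure D2:**
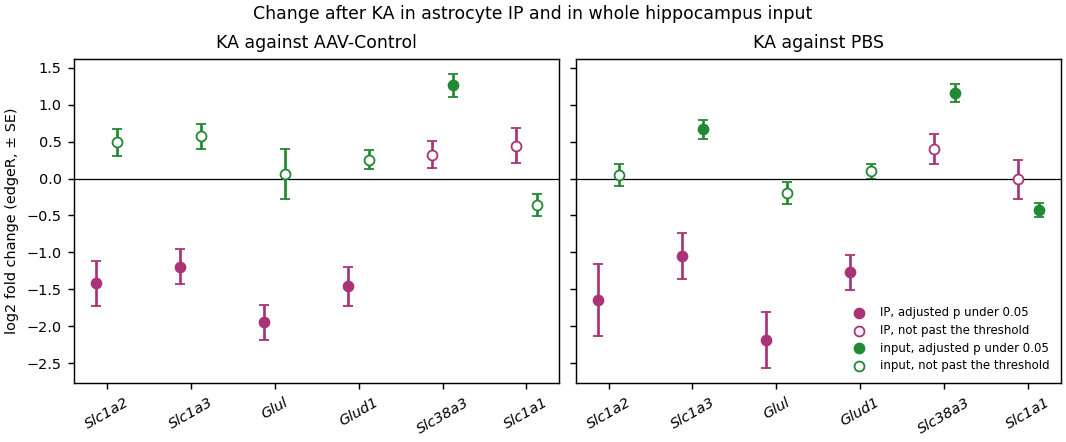
Log2 fold change (edgeR, ± SE) of each member in KA against AAV-Control (left) and against PBS (right), in IP and in input, with filled points for an adjusted p under 0.05. Slc1a2, Slc1a3, Glul and Glud1 lie between -2.19 and -1.05 in IP and between -0.20 and 0.67 in input, and Slc38a3 is called in input only.

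The IP to input ratio shows how far each transcript was concentrated in the RNA of the tagged ribosomes. The virus was injected in CA3 and the input comes from the whole right hippocampus. Cell type and hippocampal region therefore cannot be told apart in this ratio. In AAV-Control and PBS 5 of the 6 members were several times higher in IP than in input, and Slc1a1 was lower. The ratio of Glul was 12.3, 12.8 and 7.38 in AAV-Control, 9.15, 11.5 and 6.63 in PBS and 2.82, 2.34 and 2.01 in KA (FPKM in IP over FPKM in the input of the same homogenate). For Slc1a2 it was 9.15, 10.02 and 6.38, then 8.29, 8.08 and 4.92, then 2.01, 2.31 and 2.24 in the same order. Both genes had every KA homogenate below every control homogenate.

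The mean ratio of Slc1a3 was 6.63 ± 0.527 (SD, n = 3) in AAV-Control, 6.22 ± 1.38 in PBS and 1.90 ± 0.0726 in KA. Glud1 had the smallest ratio of the 5, at 4.77 ± 1.19, 3.65 ± 0.686 and 1.41 ± 0.0728. Slc38a3 had the highest mean ratio of the 6 in KA, at 3.98 ± 0.807, after 7.99 ± 1.11 in AAV-Control and 6.86 ± 1.61 in PBS. For the neuronal transporter Slc1a1 the ratio was 0.294 ± 0.0769, 0.372 ± 0.130 and 0.482 ± 0.0835. All KA homogenates were above those of AAV-Control, and PBS overlapped both.

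**Figure D3:**
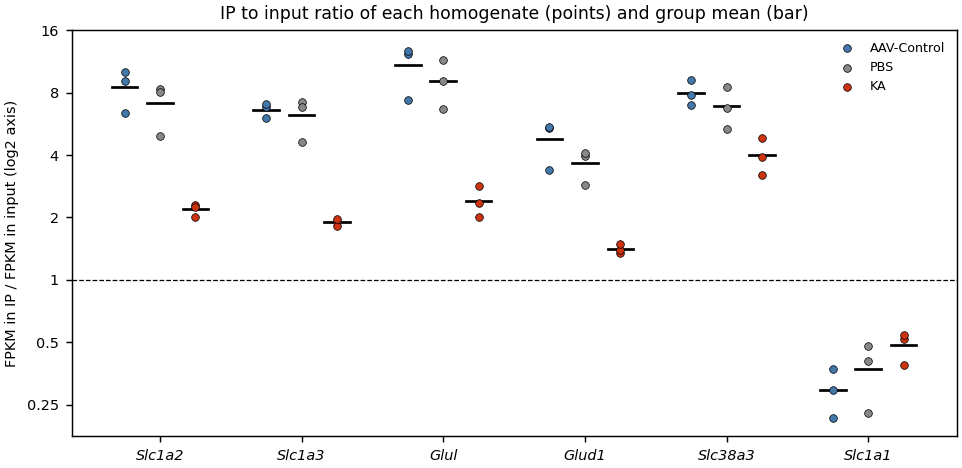
FPKM in IP divided by FPKM in the input of the same homogenate (points, log2 axis) for each member, with the mean of 3 homogenates (bar) for AAV-Control, PBS and KA. The KA points of Slc1a2, Slc1a3, Glul, Glud1 and Slc38a3 are all below the control points but above 1 (dashed), and those of Slc1a1 are below 1 in each group.

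In the edgeR fits of IP against input all 6 members were called in each group, 5 higher and Slc1a1 lower. Of all genes 19.4% were called higher and 20.3% lower in AAV-Control, 28.6% and 27.7% in PBS and 19.1% and 15.3% in KA. In KA the log2 differences were 1.35 for Slc1a2 (SE 0.206), 1.14 for Slc1a3 (SE 0.170), 1.44 for Glul (SE 0.191), 0.72 for Glud1 (SE 0.127), 2.20 for Slc38a3 (SE 0.150) and -0.82 for Slc1a1 (SE 0.188). Without KA replicate 1, Slc1a1 (edgeR adjusted p = 0.0633) and Glud1 (0.0570) were not called, and without replicate 2 Slc1a1 (0.0831), Slc1a2 (0.0767) and Glud1 (0.0682) were not. The median astrocyte marker ratio fell as well, from 6.84 in AAV-Control to 3.02 in KA. Scaled to those markers, Glud1 was lower in IP than in input in all 3 groups, at -0.66, -0.76 and -1.14 on the log2 scale, and Slc1a2 (-0.50), Slc1a3 (-0.73) and Glul (-0.43) turned negative in KA.

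An interaction term over 12 libraries tested the change after KA in IP against that in input. Cell type and hippocampal region cannot be told apart in this test either. The change was lower in IP for 5 of 6 members against AAV-Control, beside 5.98% of 9180 genes called lower and 7.18% called higher, and for the same 5 against PBS, beside 14.7% and 10.8% of 9305 genes. With AAV-Control as baseline the difference of log2 fold changes was -1.89 for Slc1a2 (SE 0.331, edgeR adjusted p = 0.00330), -1.75 for Slc1a3 (SE 0.282, 0.00203), -2.003 for Glul (SE 0.436, 0.0102) and -1.70 for Glud1 (SE 0.290, 0.00286). For Slc38a3 it was -0.92 (SE 0.217, edgeR adjusted p = 0.0153), and it came from a rise in input with no call in IP, unlike the other 4.

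Slc1a1 had a difference of 0.82 (SE 0.275, edgeR adjusted p = 0.0715) against AAV-Control, called with homogenate as a replicate block (0.80, adjusted p = 0.0130). It was also called against AAV-Control in DESeq2 (adjusted p = 0.0403), with run as a covariate in edgeR (0.0145), in run 1 alone (0.00342) and without AAV-Control replicate 3 (0.0227). The same held without the FPKM filter (edgeR adjusted p = 0.0485) and with libraries scaled to the astrocyte markers (2.08, adjusted p = 0.00196). Slc1a1 was not called with RLE size factors, in limma voom, or without KA replicate 1, 2 or 3 or AAV-Control replicate 1 or 2. Of all genes 13.2% were called in the main fit, 35.8% with the block, 17.9% in DESeq2, 29.6% with run and 35.6% in run 1 alone. Without AAV-Control replicate 3 the share was 22.1%, without the FPKM filter 5.16% and with the astrocyte markers 66.9%. Against PBS the Slc1a1 difference was 0.41 (SE 0.291, edgeR adjusted p = 0.321). The Slc38a3 difference was called in fewer of the alternatives than those of the other 4. Without the FPKM filter it was -0.83 (edgeR adjusted p = 0.116) against AAV-Control and -0.51 (0.316) against PBS. Against AAV-Control it was not called without AAV-Control replicate 1 (edgeR adjusted p = 0.0702), AAV-Control replicate 2 (0.0596), KA replicate 2 (0.0956) or KA replicate 3 (0.0510), and against PBS without KA replicate 1 (0.0531), 2 (0.162) or 3 (0.0631) or PBS replicate 1 (0.109) or 2 (0.0978). Glul was not called against AAV-Control without AAV-Control replicate 1 (0.0504) or KA replicate 2 (0.0643), and Slc1a2 not against PBS without KA replicate 1 (0.0737) or 2 (0.0723).

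Scaled to the astrocyte markers, none of these 5 differences was called. Against AAV-Control they were -0.58 for Slc1a2, -0.47 for Slc1a3, -0.74 for Glul, -0.39 for Glud1 and 0.34 for Slc38a3, with edgeR adjusted p from 0.106 to 0.379, and Slc1a1 was then called (2.08, adjusted p = 0.00196). The median of all genes moved to 1.24 under that scaling, and 66.9% of 9180 genes were called. Relative to the astrocyte markers, then, a difference between the change after KA in IP and that in input was not detected for the 5.

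Ratios between members within a library do not depend on how libraries are scaled. Slc38a3 over Slc1a2 in IP was 0.0191, 0.0156 and 0.0272 in AAV-Control, 0.0141, 0.0152 and 0.0206 in PBS and 0.0848, 0.0539 and 0.0617 in KA. All KA libraries were above all control libraries, by 1.71 against AAV-Control and 2.0002 against PBS on the log2 scale (two-sided exact permutation p = 0.1 for each, the smallest that 3 against 3 allows). In input the same ratio was 0.0354 to 0.0386 in KA and 0.0137 to 0.0249 in the control groups. The pair was picked after its values were seen.

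Slc1a2 over Glud1 in IP was 9.88 ± 0.816 (SD, n = 3) in AAV-Control and 9.99 ± 0.608 in KA, with overlapping libraries, and 12.8 ± 1.26 in PBS. Slc1a2 over Slc1a3 in IP was 4.66 ± 0.333 in AAV-Control, 6.03 ± 0.246 in PBS and 4.07 ± 0.852 in KA. The KA values overlapped those of AAV-Control and were below those of PBS. Slc1a2 over Glul in IP was 1.81 ± 0.689, 1.77 ± 0.387 and 2.49 ± 0.267, overlapping AAV-Control and above PBS. Against AAV-Control the KA libraries thus overlapped in each of these ratios. Overlap with n = 3 does not show that the proportions were kept. Against PBS each ratio was apart, by -0.59 over Slc1a3, 0.51 over Glul and -0.35 over Glud1 on the log2 scale. For each of these the two-sided exact permutation p was 0.1, the smallest that 3 against 3 allows.

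Over the 9 IP libraries Slc1a2, Slc1a3, Glul and Glud1 varied together, with Pearson's r of 0.866 to 0.972 between pairs on log2 CPM, and Slc38a3 had r of -0.519 to -0.427 with them. These libraries share groups, runs and scaling, so the values only describe them. Among 9584 genes the closest to Slc1a2 were Lypd6 (r = 0.984), Aldh5a1 (0.982) and Pygb (0.978), and to Slc1a3 they were Gja1 (0.988), Metrn (0.987) and Asrgl1 (0.986). Glul was closest to Ndrg2 (0.993), Fermt2 (0.992) and Cntfr (0.990), and Glud1 to Sfxn5 (0.988), Epb41l2 (0.987) and 2310022B05Rik (0.986). Slc38a3 had weaker matches in Rasa3 (0.924), Gcsh (0.914) and Prdx1 (0.901), and Slc1a1 was closest to Arhgef7 (0.973), Dock3 (0.953) and Ak5 (0.952).

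Other genes of glutamate and glutamine handling moved in both directions in IP. Of 9 glutamate and glutamine enzymes 8 were tested, and 2 were called higher and 2 lower against AAV-Control. Got1 and Got2, the cytosolic and mitochondrial aspartate aminotransferases, rose by 1.57 (SE 0.153) and 1.53 (SE 0.319) on the log2 scale against AAV-Control and by 1.66 and 1.11 against PBS. Gpt, an alanine aminotransferase, fell by 1.19 and 0.98. Bcat2, a branched-chain aminotransferase, fell by 0.64 against AAV-Control and was at -0.48 against PBS (edgeR adjusted p = 0.115).

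Of 3 mitochondrial glutamate and aspartate carriers tested (of 4), the 2 glutamate carriers moved apart. Slc25a18 fell by 2.14 (SE 0.242) against AAV-Control and by 2.02 against PBS, more than any of the 6 members against AAV-Control, while Slc25a22 rose by 1.21 (SE 0.156) and 0.76. Slc7a11, the cystine-glutamate exchanger, fell by 1.87 (SE 0.230) and 1.51. Slc17a7, the vesicular glutamate transporter of excitatory neurons, rose by 1.48 (SE 0.229) and 0.85. The genes that rose were lower in IP than in input in AAV-Control, at -2.24 for Got1, -1.82 for Got2, -2.54 for Slc25a22 and -2.59 for Slc17a7 on the log2 scale. Slc25a18 (3.20) and Slc7a11 (1.31) were higher in IP. The part of neuronal RNA, whose marker sum in IP rose as given above, was not tested.

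Slc1a4, the 1 gene of 4 others in the SLC1 family that was tested, was at -0.08 and 0.10 and not called. Of 4 other glutamine transporters 3 were tested and 0 called in edgeR against either control group, with 1 and 2 at an unadjusted p under 0.05, 0 and 1 called in DESeq2 and 0 in limma voom. In input against AAV-Control 0 genes of these 5 lists were called in edgeR, DESeq2 or limma voom (2 at an unadjusted p under 0.05). In input against PBS Gpt2 (0.45) was called higher and Gls2 (-0.58), Slc25a12 (-0.38), Slc25a18 (-0.38) and Slc25a22 (-0.31) lower.

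**Figure D4:**
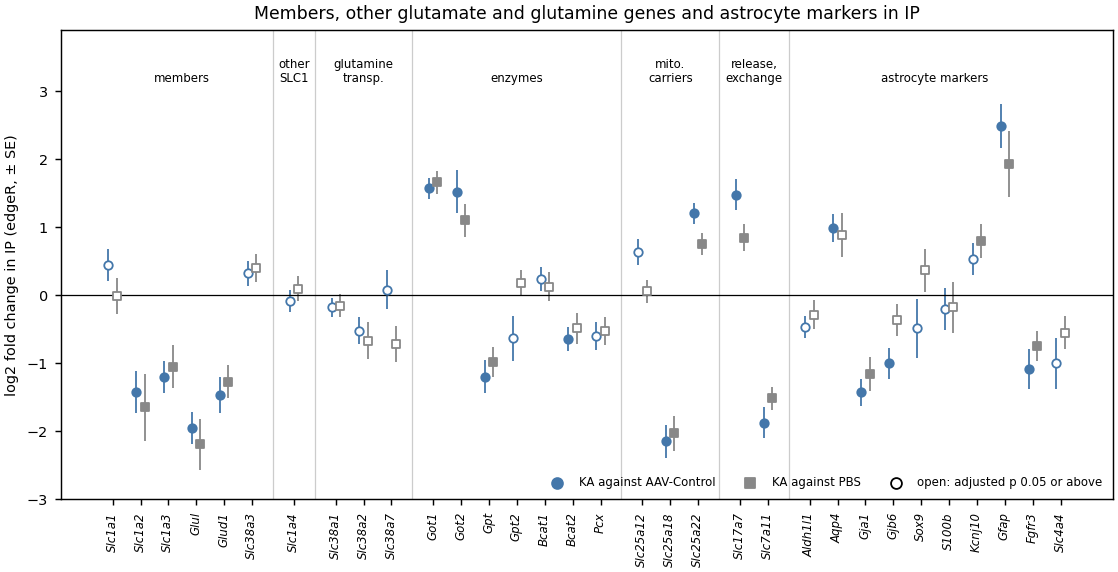
Log2 fold change in IP (edgeR, ± SE) after KA against AAV-Control (circles) and PBS (squares) for the members, other listed genes of glutamate and glutamine handling and the 10 astrocyte markers, with filled symbols for an adjusted p under 0.05. Slc25a18 at -2.14 and -2.02 lies near Glul at -1.95 and -2.19, and the astrocyte markers spread from -1.42 for Gja1 to 2.49 for Gfap against AAV-Control.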

How the data were processed

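The authors aligned reads to mm10 with STAR, and the processing notes name featureCounts and edgeR; versions, annotation, strandedness and the handling of multi-mapping reads are not given in the sources used here. The deposited files hold raw counts per gene symbol and the authors' FPKM for each library. Levels and IP to input ratios were taken from FPKM, and tests used the deposited counts. The members and gene lists were chosen with earlier results of these data known.

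Genes with FPKM above 1 in every library of a comparison were tested in edgeR 4.0.16 (R 4.3.3) with TMM scaling and the quasi-likelihood test, adjusted by Benjamini-Hochberg over all genes tested, with a call at adjusted p under 0.05. The SE was the log2 fold change over the square root of F. Levels were also compared as log2(FPKM + 1) by an exact permutation test, which cannot give p below 0.1 with 3 against 3. Alternatives used DESeq2 1.42.0 and limma 3.58.1. The fit was tested on simulated data. All 6 members were named, with each listed gene called in IP and, for each member, the 3 genes with the highest Pearson correlation over the IP libraries. Of the listed genes, 1 is not reported here.

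Samples were grouped by their labels. IP and input of the same number come from 1 homogenate, and their residuals correlated in every pair (0.124 to 0.719). Same-numbered KA and AAV-Control libraries also correlated in every pair (0.303 to 0.518), so the replicate number was used as a block in an alternative fit. P-values measure the spread between pools of mice, which in AAV-Control and KA also holds the difference between runs 1 and 2. The main fits of IP against input and of the interaction did not pair the libraries of a homogenate. Totals of 7991681 to 16032180 counts gave each member at least 142 counts in each library.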

Additional observations from a re-analysis of the deposited data

Results flagged for a closer look

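The members Slc1a2, Slc1a3, Glul, Glud1 and Slc38a3 were flagged because their change after KA was not the same in IP as in input by the interaction test (edgeR, adjusted p under 0.05), against both control groups. With AAV-Control as baseline the difference in log2 fold change, IP minus input, was -1.89 for Slc1a2, -1.75 for Slc1a3, -2.003 for Glul, -1.70 for Glud1 and -0.92 for Slc38a3. With PBS as baseline it was -1.71 for Slc1a2, -1.73 for Slc1a3, -2.01 for Glul, -1.38 for Glud1 and -0.77 for Slc38a3, with adjusted p from 0.00225 to 0.0307. Both baselines share the KA libraries. Groups held 3 samples, so that no search for single samples far from the rest was made.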

How the results depend on the processing

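Glul and Glud1 stayed called lower in IP under every alternative run but the scaling to astrocyte markers, which kept them called against PBS and not against AAV-Control. Slc38a3 stayed called higher in input under every alternative but that scaling. That scaling was chosen after seeing the data and was run in all 11 comparisons. It called 0 members in IP against AAV-Control and 3 against PBS, beside 12.4% and 14.9% of all genes. In input it called 2 against AAV-Control and 4 against PBS, beside 68.8% and 86.3%. In IP against input it called 2, 3 and 3 in AAV-Control, PBS and KA, beside 96%, 95.6% and 94.9%. In each interaction it called 1, beside 66.9% of all genes with AAV-Control and 61.9% with PBS. The scaling moved the median of all genes to -3.01, -2.66 and -1.86 in the IP against input fits by its own construction, since the markers are higher in IP. It turned these log2 values: in IP, KA against PBS, Slc1a1 0.19; in IP, PBS against AAV-Control, Slc1a3 0.13, Glud1 0.11 and Slc38a3 0.20; in input, KA against AAV-Control, Slc1a2 -0.25, Slc1a3 -0.19, Glul -0.69 and Glud1 -0.49; in input, KA against PBS, Slc1a2 -0.87, Slc1a3 -0.28 and Glud1 -0.84; in input, PBS against AAV-Control, Slc1a3 0.043. In IP against input it turned Slc1a3 (-0.16) and Glud1 (-0.66) in AAV-Control, Glud1 (-0.76) in PBS, and Slc1a2 (-0.50), Slc1a3 (-0.73), Glul (-0.43) and Glud1 (-1.14) in KA. In the interactions it turned Slc38a3 to 0.34 and 0.45.

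In input against AAV-Control, where 1 member was called, DESeq2 called 3, the replicate block 2, run as a covariate 3, run 1 alone 6 and the fit over all 9 input libraries 2. The shares of all genes in these fits were 8.19%, 10.2%, 16%, 43.4% and 8.77% in the same order, beside 4.49% in the main fit. The replicate block called 2 members and 31.3% of all genes in IP against PBS, where numbers do not pair the samples (residual correlations of -0.274 to 0.102). Slc1a2 (-1.60, edgeR adjusted p = 0.0901) and Slc1a3 (-1.01, 0.0600) were no longer called in that fit. Beside these and the block values given with the results, the block changed no other call. Leaving out 1 replicate gave 2 to 4 members called in IP against AAV-Control and against PBS, 1 to 4 in input against AAV-Control, 3 to 4 against PBS, 0 to 2 between the control inputs, 3 to 6 in IP against input of KA, 3 to 6 in the interaction with AAV-Control and 3 to 5 with PBS. The same fits called, over all genes, 840 to 3303 and 2422 to 3663 in the IP comparisons of KA, 136 to 2620 and 1721 to 4799 in the input ones, 0 to 1118 and 0 to 4040 between the control IPs and inputs, 1602 to 6426, 4292 to 5214 and 1354 to 4964 in IP against input of AAV-Control, PBS and KA, and 510 to 2031 and 1319 to 2114 in the interactions. With 1 replicate left out these uncalled values changed sign, with ranges of -0.22 to 0.23 for Slc1a1 in IP against PBS, of -0.010 to 0.46 for Slc1a2, -0.21 to 0.48 for Glul, -0.36 to 0.067 for Slc1a3 and -0.27 to 0.039 for Slc38a3 in IP of PBS against AAV-Control, of -0.14 to 0.58 for Glul in input against AAV-Control, and of -0.031 to 0.15 for Slc1a1 between control inputs. Slc1a1 in IP against PBS was also 0.21 without the FPKM filter, 0.0011 in limma voom and 0.010 with the block, and its level difference was 0.011 with a pseudocount of 0.1 and 0.018 on TMM CPM. Slc1a2 in input against PBS was -0.0014 on TMM CPM. On TMM CPM the IP to input ratio was 2.56 for Slc1a2, 2.23 for Slc1a3, 2.80 for Glul and 1.66 for Glud1 in KA, and 7.43 for Slc1a3 in AAV-Control. The cause of these changes was not tested. Without the FPKM filter Slc1a3 was not called in IP against PBS (-0.88), and the median of the 9847 genes that pass the filter was 0.19 in that fit. Depth limits Slc38a3 in the control inputs most, with 142 to 229 counts a library in AAV-Control and 149 to 221 in PBS. Slc1a1 in IP had 173 to 488 counts a library.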
